A study of Mus musculus with 4 samples.

Results

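Pitx1 peaks were examined in a stretch of mouse chromosome 6 from 50.5 to 51.4 Mb (build mm9), which is described as the interval between the genes Npvf and Nfe2l3 that holds the microRNA gene Mir148a. The stretch was chosen by its high count of replicated peaks, so that count is a description here. Members were the peaks with their midpoint in the stretch. A member that had 1 bp or more in common with a peak from the second library was called shared, or replicated. By this rule the members were 31 of the 14753 peaks in replicate 1 and 40 of the 25027 in replicate 2. Joined where they overlapped, the shared members made 21 of the 10274 replicated regions of the genome.

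The peaks come from chromatin immunoprecipitation and sequencing (ChIP-seq) with a Pitx1 antibody on hindlimb buds of wild-type ICR embryos at stage E11.5. The series has 2 Pitx1 ChIP libraries and 2 input chromatin libraries, and all 4 share the same strain, genotype, tissue and age. Buds hold several cell types, and the labels do not say how many embryos were pooled or whether the replicates came from separate litters. Forelimb and Pitx1 mutant tissue was not analysed here, so the peaks describe 1 tissue and 1 genotype. Peaks are named after the antibody, and pull-down by a control antibody was not analysed here.

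Pitx1 is a homeodomain transcription factor of the bicoid type. It is made in the hindlimb bud and not in the forelimb bud, where it helps to set hindlimb identity, in part through the T-box gene Tbx4. Transcription factors of this kind often bind far from genes, at distal regulatory elements, and stretches with few protein-coding genes can hold many such elements. A microRNA is a short RNA that guides a silencing complex to messenger RNAs, mainly by pairing of its seed (bases 2 to 8) with the target. Npvf encodes the precursor of RFamide neuropeptides, and Nfe2l3 encodes a cap'n'collar basic leucine zipper transcription factor.

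The mature sequences below, from RefSeq (GRCm38.p6), show what the microRNA gene in the stretch makes, with the seed in capitals. Mir148a, on chromosome 6, and Mir148b and Mir152, on chromosomes 15 and 11, form a family.
mmu-miR-148a-3p: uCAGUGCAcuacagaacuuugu
mmu-miR-148b-3p: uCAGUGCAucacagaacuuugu
mmu-miR-152-3p: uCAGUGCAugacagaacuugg
These were the only 3 of the mature mouse microRNAs in that table with this seed. Counted from the 5′ end of miR-148a-3p, miR-148b-3p differs by C9U and U10C. Over the 21 bases that miR-152-3p can be set against, it differs by C9U, U10G and U20G. The Mir148a hairpin, with the 5p arm and then the 3p arm in capitals, is 99 bases long.
Mir148a hairpin: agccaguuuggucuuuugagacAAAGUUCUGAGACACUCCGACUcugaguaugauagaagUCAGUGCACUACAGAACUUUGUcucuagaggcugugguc

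In RefSeq order, 21 annotated genes lie between Npvf and Nfe2l3. Of these, 18 are long non-coding RNA genes, 1 is a pseudogene, 1 is Mir148a, and the only gene annotated as protein-coding is Gm38821, whose span holds Mir148a. That annotation is of another build than the peaks. Where Mir148a or any other gene sits among the mm9 peaks was therefore not analysed here, and neither were the edges of the stretch relative to Npvf and Nfe2l3. The bases under the peaks were likewise not analysed here.

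The scores in the deposited lists are the authors' peak caller's own values, and they describe or rank peaks within their own list. A score percentile below is the percentage of peaks in the same list with a lower score. No p-value was computed, because the stretch was chosen for its peaks and peaks of a library are not replicates. The 95% intervals given for shares are Wilson intervals, which cover counting error only and take neighbouring peaks as independent. Read depth is unknown.

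Peaks of both replicates gathered in the middle of the stretch and left wide parts of it bare. By bins of 100 kb from the low-coordinate end, replicate 1 had 0, 4, 4, 0, 8, 9, 4, 0 and 2 peaks. Replicate 2 had 0, 4, 2, 1, 9, 11, 12, 0 and 1. Replicated regions numbered 0, 1, 1, 0, 6, 8, 4, 0 and 1, so 18 of the 21 were in the fifth, sixth and seventh bins. Neither list had a peak in the first or the eighth bin.

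**Figure D1:**
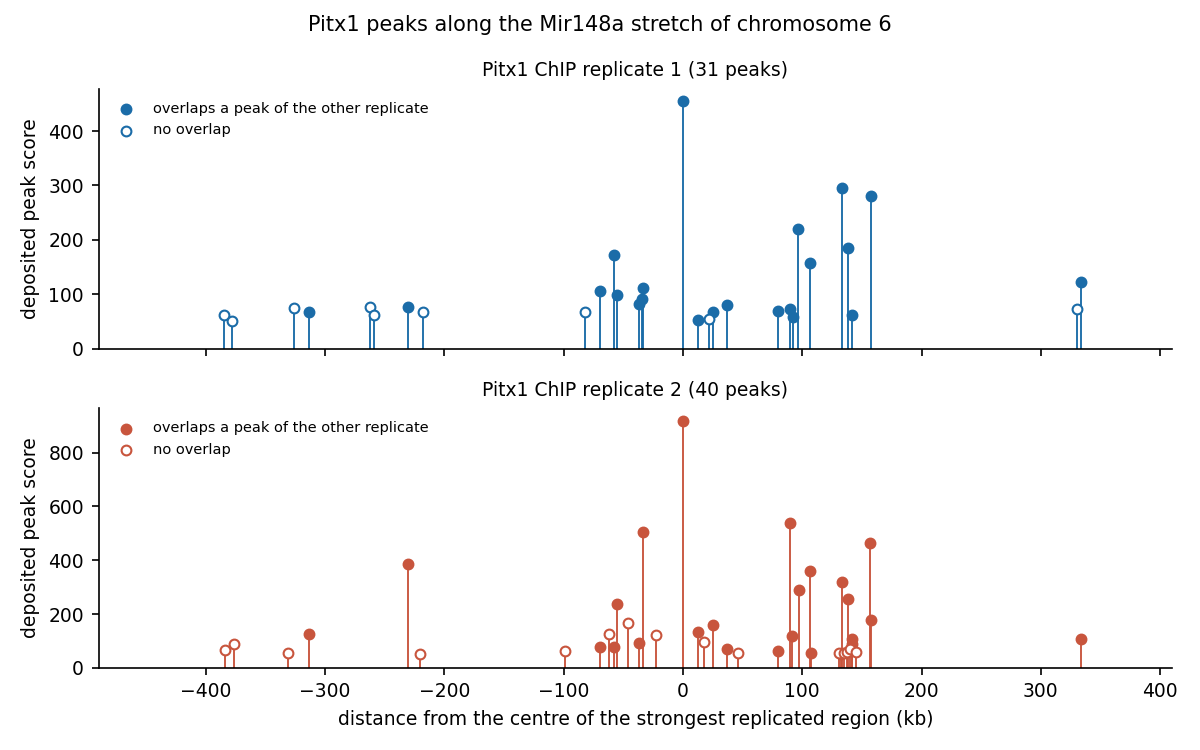
Deposited score of each Pitx1 peak (y axis, no unit) against its distance in kb from the centre of the strongest replicated region (x axis), with replicate 1 above and replicate 2 below. Filled circles overlap a peak of the other replicate and open circles do not. The highest score of each list in the stretch, 455 in replicate 1 and 919 in replicate 2, falls at the same place, and open circles in replicate 1 reach at most 75.7.

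**Figure D2:**
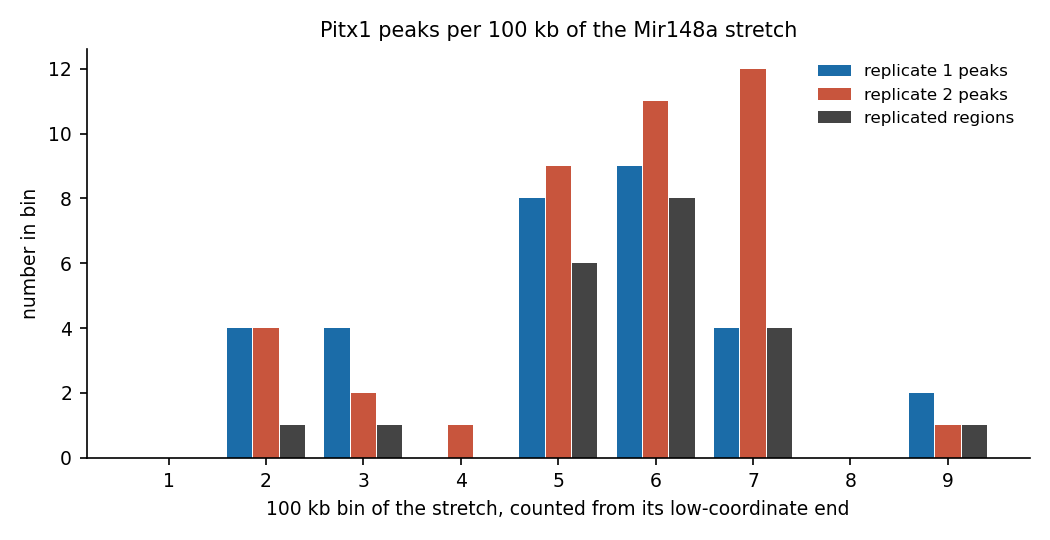
Number of replicate 1 peaks, replicate 2 peaks and replicated regions (bars, y axis) in each 100 kb bin of the stretch (x axis). The fifth to seventh bins hold most peaks of either list, and the first and eighth hold 0.

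The densest 201 kb, from 50931251 to 51132171, held 16 of the 21 replicated regions, 18 replicate 1 peaks and 27 replicate 2 peaks. Sharing in it reached 94.4% in replicate 1 (17 of 18) and 70.4% in replicate 2 (19 of 27). In the rest of the stretch it was 38.5% in replicate 1 (5 of 13) and 46.2% in replicate 2 (6 of 13). This part was delimited by its replicated regions, so its higher sharing was built into the choice and is given as a description. With the densest 200 kb taken out, 5 regions remained in 700 kb. That was 1.74 times the mean of autosomal windows of 700 kb, and 78.2% of those windows held fewer.

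Neighbouring replicated regions in the stretch lay a median of 12.3 kb apart between midpoints (20 spacings, from 2.16 to 176 kb), against 88.7 kb over the autosomes and 74.1 kb on chromosome 6. Spacings under 10 kb made up 40.0% in the stretch and 12.7% over the autosomes. Spacings under 5 kb made up 20% in the stretch and 7.07% over the autosomes. The closeness of regions is another form of the density by which the stretch was chosen.

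**Figure D3:**
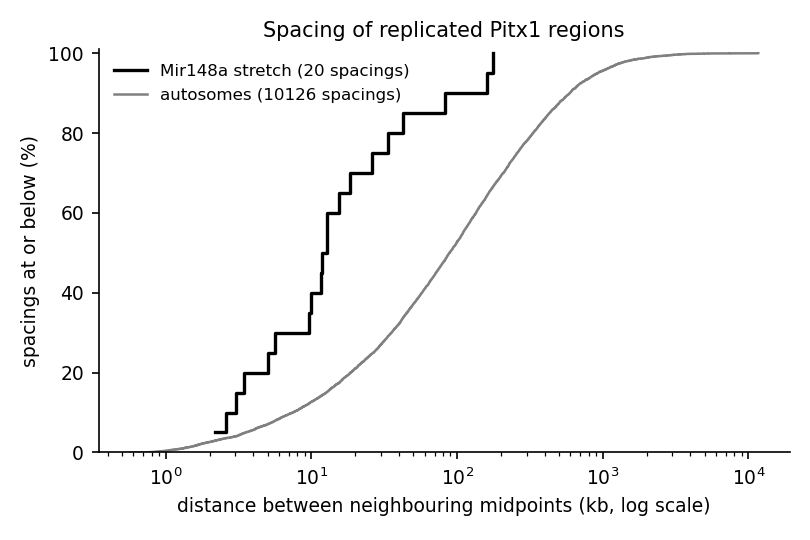
Cumulative percentage of spacings (y axis) at or below a distance between neighbouring midpoints (x axis, kb, log scale) for 20 spacings in the stretch (black) and 10126 on the autosomes (grey). The medians are 12.3 kb in the stretch and 88.7 kb on the autosomes.

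Runs of regions under 10 kb apart took in 12 of the 21 regions, and the other 9 stood singly. The share of all replicated regions in such runs was not analysed here. Runs too are a form of the density by which the stretch was chosen, so these counts are a description. The longest run had 5 regions within 28.0 kb, from 51068924 to 51096959. Its members began at 51068924, 51079025, 51081274, 51086213 and 51095537. A run of 3 regions followed within 11.0 kb, the last of them ending at 51132171. The remaining runs held 2 regions each, from 50931251 to 50935093 and from 50952458 to 50956760.

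The longest interval without a replicated region was 176 kb between midpoints. It ran from the region at 51145934 to 51148223 to the last one, at 51322705 to 51323766. The next longest was 161 kb, between the regions that start at 50758929 and 50919742. Outside the stretch, the nearest replicated region at lower coordinates (50453327 to 50454605) was 46.0 kb before the edge. At higher coordinates the nearest (51409552 to 51411161) was 10.4 kb beyond the edge.

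The stretch held 21 replicated regions, 5.67 times the mean of 3.70 in 24497 autosomal windows of the same length, placed every 100 kb. Their median was 3 and their highest count 32. Fewer regions were found in 99.5% of these windows, and 114 windows, in 24 separate places, had as many or more. For replicate 1 alone, the 31 peaks were 5.83 times the mean of 5.31, with 11 places as dense or denser. For replicate 2 alone, the 40 peaks were 4.43 times the mean of 9.02, with 26 such places. The stretch was thus among the densest of the autosomes in either list without being the densest.

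**Figure D4:**
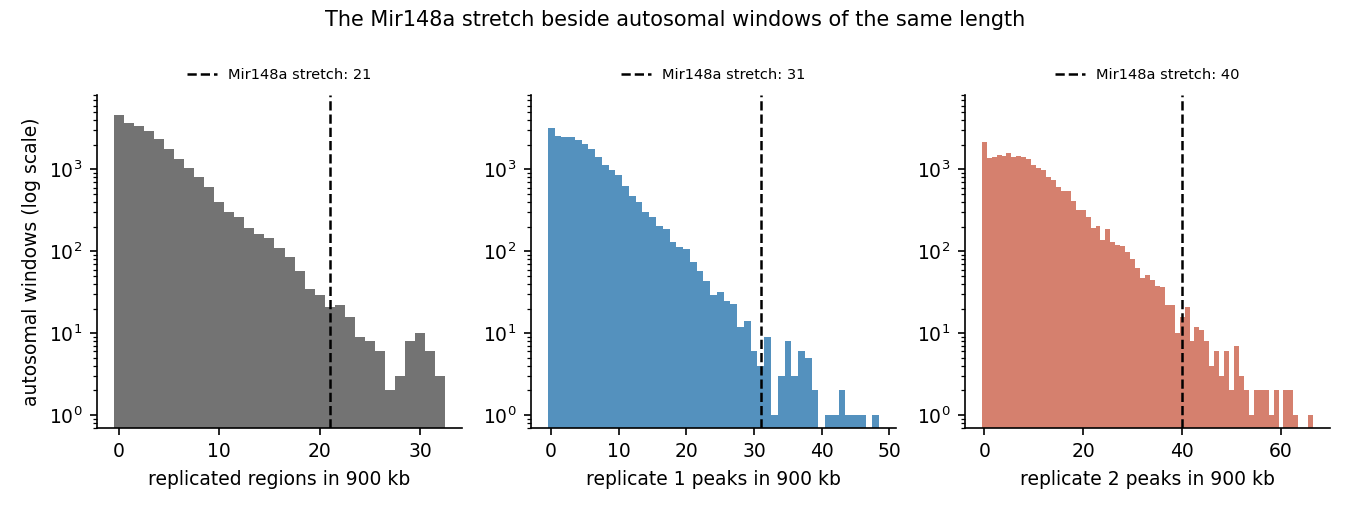
Number of autosomal windows of 900 kb (y axis, log scale) by their count of replicated regions, replicate 1 peaks and replicate 2 peaks (x axes, left to right). Dashed lines mark the stretch, at 21, 31 and 40, and windows to the right of the lines exist in each panel, up to 32, 48 and 66.

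The eighth and ninth bins of the stretch held 0 and 1 replicated regions, so its dense part ended before the high-coordinate edge. Beyond that edge, the next 900 kb held 21 replicated regions too, with 23 replicate 1 and 50 replicate 2 peaks. Of these, 91.3% in replicate 1 and 44% in replicate 2 were shared, against 71.0% and 62.5% in the stretch. The 900 kb before the stretch held 10 replicated regions, with 12 and 18 peaks.

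The chromosome 6 stretch contains the second of the 5 densest intervals of 200 kb on the autosomes, with 16 replicated regions in 200 kb, and the densest has 17. Widened to 900 kb about their centres, the windows on chromosome 18 (54638248 to 55538248), 13 (59735751 to 60635751), 3 (54813351 to 55713351) and 11 (111157667 to 112057667) were set beside it. The densest 200 kb held 76.2% of the 21 replicated regions here. In those windows it held 53.1% of 32, 51.7% of 29, 58.3% of 24 and 59.1% of 22, in the same order. Median spacing was 12.3 kb here, against 15.7, 12.5, 11.9 and 16.6 kb. The stretch here was not centred on its densest 200 kb, as the other windows were, and what this adds to the difference in shares was not tested.

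By overlap of at least 1 bp, members of replicate 1 recurred about as often as their whole list, and members of replicate 2 more often. The stretch was chosen by its count of replicated peaks, so raised sharing is partly built into the choice. The shares are given as a description. Of the 31 replicate 1 peaks, 22 were shared (71.0%, interval 53.4 to 83.9%), against 69.8% of the whole list. Of the 40 replicate 2 peaks, 25 were shared (62.5%, interval 47.0 to 75.8%), against 42.6% of the whole list. In the compared dense windows on chromosomes 18, 13, 3 and 11, the replicate 2 share was 64.4%, 74.4%, 63.2% and 65.7%. The raised replicate 2 share was thus not particular to the stretch. In replicate 1 those windows had 79.5%, 80.6%, 68.6% and 81.5%. Both comparisons of the stretch with the whole list changed with how peaks were taken. When sharing meant midpoints no more than 250 bp apart, it came to 51.6% in the stretch, against 64.9% of the whole list, for replicate 1. For replicate 2 it was 40.0% against 38.3%. When each list was cut to the 50% with the highest scores, 10 of 24 replicate 2 peaks (41.7%) were shared, against 44.8% of all such peaks. The share of replicate 2 was above that of its list with reciprocal overlap of 50% (17 of 40, 42.5%, against 34.0%). In the best 25% it was 53.8% against 45.6%, from only 7 of 13 peaks. With equal numbers of best peaks it was 80.8% (21 of 26) against 58.5%.

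Peaks here were wider than usual. Median width was 927 bp in replicate 1 members, against 796 bp in the whole list, and 616 bp in replicate 2 members, against 455 bp. Peaks covered 3.57% of the stretch in replicate 1, against 0.510% of the autosomes. In replicate 2 they covered 2.96% of the stretch and 0.517% of the autosomes.

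By median percentile, scores of the members lay somewhat below the middle of their list in replicate 1 and somewhat above it in replicate 2. In replicate 1 the median member score was 75.7 (range 51.0 to 455), at a median percentile of 44.4, and 19 of 31 members lay below the middle of their list. In replicate 2 the median member score was 100.2 (range 50.6 to 919), at a median percentile of 57.6, and 16 of 40 lay below the middle. The highest score decile held 4 of 31 replicate 1 members (12.9%, interval 5.13 to 28.9%), against 10% by definition. It held 8 of 40 replicate 2 members (20%, interval 10.5 to 34.8%), against 10%. Set beside 10%, these intervals are no test, because peaks of a library are not replicates. In the compared windows on chromosomes 18, 13, 3 and 11, the replicate 2 share was 18.6%, 9.30%, 13.2% and 20%. In replicate 1 it was 9.09%, 11.1%, 17.1% and 25.9%. Over the whole replicate 2 list, shared peaks had a median percentile of 73.7 and unshared peaks 35.2. The stretch was chosen by its count of replicated peaks, so these shares are a description.

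The strongest replicated region was at 50989184 to 50990448, and it had the highest score of the stretch in each list. Its score was 455 in replicate 1 (rank 284 of 14753) and 919 in replicate 2 (rank 204 of 25027), and by summed rank it was number 182 of all 10274 regions. It stood singly, 33.8 kb from the region before it and 12.8 kb from the region after it. The best region of the compared windows was at number 5 on chromosome 3, 268 on chromosome 11, 448 on chromosome 13 and 1002 on chromosome 18.

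The next 3 regions by summed rank also lay in the highest score decile of both lists. That made 4 of 21 (19.0%, interval 7.67 to 40.0%), against 10.5% of all replicated regions. The region at 51145934 to 51148223 scored 281 in replicate 1 and 465 in replicate 2. The region that ends at 51123810 scored 295 and 318, and the region at 51086213 to 51087101 scored 220 and 290. All 3 were on the high-coordinate side of the strongest region, between 96.8 and 157 kb from it.

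The fifth to the seventh by summed rank scored high in replicate 2 and more variably in replicate 1. The region at 51095537 to 51096959 had percentiles of 82.5 in replicate 1 and 93.4 in replicate 2. That at 51127457 to 51128817 had percentiles of 86.5 and 88.5. At 50955231 to 50956760 the percentiles were 69.2 and 96.6. The first 2 of these belong to the runs of 5 and of 3 regions, and the third to a run of 2.

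The last 3 of the 10 regions with the lowest rank sums stood higher in replicate 2 than in replicate 1. The region at 50933931 to 50935093 scored 97.8 in replicate 1 (percentile 62.1) and 236 in replicate 2 (percentile 87.0). At 51079025 to 51079899 the scores were 72.7 (percentile 40.7) and 537 (percentile 97.0), the second highest replicate 2 score in the stretch. At 50758929 to 50759769 they were 76.1 (percentile 44.8) and 386 (percentile 94.2). The last of these is an outlying region, 230 kb on the low-coordinate side of the strongest.

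Strength was loosely matched between the libraries. Over the 16 members paired 1 to 1, scores gave a Spearman's rho of 0.20 and, as log10 values, a Pearson's r of 0.48, against 0.55 and 0.64 over 9891 such pairs in the genome. The 1 to 1 pairs leave out the 5 regions that joined more than 1 peak of a list. Over all 21 regions, with the best score of each list, rho was 0.41, against 0.56 over all replicated regions. Without the strongest region it was 0.03 over 15 pairs and 0.31 over 20 regions, so the value from 1 to 1 pairs rests largely on that region. These values describe 2 libraries whose peaks were called separately, and the points share a place in the genome. No interval is given for them, and the pairs are few.

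The percentile was higher in replicate 2 at 15 of the 21 regions (71.4%), against 65.6% of all replicated regions. The widest difference was at 51002129 to 51003130, with a percentile of 5.68 in replicate 1 and 70.4 in replicate 2. In the other direction, the widest was at 50931251 to 50932615, with 84.7 in replicate 1 and 41.7 in replicate 2. These 2 were named after their values were seen. Percentiles differed by more than 25 points at 9 of 21 regions (42.9%, interval 24.5 to 63.5%), against 34.8% of all replicated regions.

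**Figure D5:**
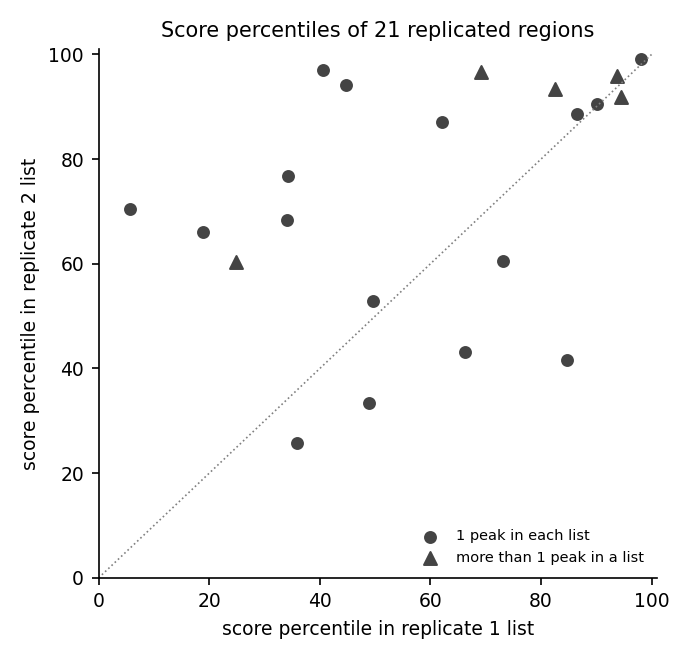
Score percentile of each of the 21 replicated regions in the replicate 1 list (x axis) and the replicate 2 list (y axis), from the best peak of each list. Triangles are regions with more than 1 peak in a list, and the dotted line marks equal percentiles. Of the 21 points, 15 lie above the line, and 4 are at or above 90 on both axes.

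Where peaks lay close together, the lists divided them differently. Of the 21 regions, 5 (23.8%, interval 10.6 to 45.1%) joined more than 1 peak of a list, against 3.73% of all replicated regions. Closely packed peaks go with a stretch chosen for its density, so this share is given as a description. At 50955231 to 50956760, 2 replicate 1 peaks with 17 bp between them scored 91.9 and 112, and both overlapped the same replicate 2 peak, which scored 505. At 51145934 to 51148223, 1 replicate 1 peak of 2290 bp met 2 replicate 2 peaks with 15 bp between them, which scored 465 and 179.

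The region that ends at 51123810 was also of this kind. Its replicate 1 peak (51122281 to 51123744, score 295) overlapped a weak replicate 2 peak (1570 bp, ending at 51122700, score 51.0) by 420 bp. The same replicate 1 peak overlapped a strong replicate 2 peak (51122854 to 51123810, score 318) by 891 bp. The scores of 295 and 51.0 therefore do not stand for the region as a whole, which was strong in both lists.

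Peaks found in 1 list only were mostly weak. In replicate 1, the 9 unshared members had percentiles from 2.32 to 44.4 (median 32.9), against a median of 28.8 for all unshared peaks of that list. In replicate 2, the 15 unshared members had percentiles from 1.49 to 78.1 (median 24.4), against 35.2. The nearest peak of the other list was under 5 kb away for 6 of the 9 in replicate 1, against 19.5% of all unshared peaks of that list. In replicate 2 it was so for 11 of the 15, against 14.9%. Under 1 kb the counts were 1 of 9, against 6.56%, and 4 of 15, against 4.79%. Near neighbours are built into a stretch chosen for its density. The closest such pair of unshared peaks, at 50604932 to 50605442 in replicate 1 and 50605897 to 50606171 in replicate 2, had 454 bp between them.

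The strongest unshared replicate 1 peak (50726729 to 50727700) scored 75.7, with 31.3 kb to the nearest peak in the other list. The strongest unshared replicate 2 peak (50943789 to 50944490) scored 167, at a percentile of 78.1, with 7.97 kb to the nearest peak in the other list. It lay in the dense part of the stretch, between the 2 runs of 2 regions.

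The deposited list of 1 bp positions had 24 in the stretch, and each of the 21 replicated regions held at least 1 of them, as did 99.7% of all replicated regions. Of the 25 shared replicate 2 peaks, 24 held a position, and the exception was the weak peak that ends at 51122700. In 3 regions there were 2 positions, and each of these regions joined 2 replicate 2 peaks. No unshared peak of either list held a position. The whole-list shares for shared and unshared peaks were not analysed here. Over the genome the list had 10625 positions, close to the 10658 shared replicate 2 peaks. It may therefore have been made from the overlap of the 2 peak lists, which was not tested. In that case its match with the replicated regions would be built in, so these counts are a description and no separate check.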

How the data were processed

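The submitters' processing notes name build mm9 and the programs MACS 1.4.2, Bowtie 0.12.8, bedtools 2.16.2 and CASAVA (1.7, 1.8.2) without roles. How the caller was set and whether it used the input are details not given in the sources used here. Chromatin fixed in 1% formaldehyde was sheared to 200 to 600 bp, per the labels' protocols. Each ChIP library has its own deposited list of peaks with a score per peak, and the authors deposited 1 further list of positions without a score. The input libraries were not analysed here. Coordinates are counted from 1.

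Overlaps, spacings and counts in autosomal windows of 900 kb, up to the last peak of each chromosome and leaving out those that touch the stretch, were computed with Python 3.11.15, numpy 2.4.6, pandas 2.3.3 and scipy 1.17.1, and tested on simulated lists. Regions were named by rule: the 10 lowest rank sums, the strongest unshared peak of each list, the tightest run and the ends of the longest interval. All runs and the next longest interval were given as well. The pair of peaks in the region that ends at 51123810 was named because its difference in ranks was known from earlier results. The regions at 51002129 and 50931251 were singled out for their percentile differences after their values were seen. The stretch, the rules and the lists were chosen with earlier results of these data known. The planned search for the Pitx1 motif under peaks was not run, since no mm9 sequence was used here.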

Additional observations from a re-analysis of the deposited data

How the results depend on the processing

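No paired analysis was possible because without the input, which was not analysed here, there is 1 group. Of 61 recomputed values, 34 stayed within their limit and 27 moved. The limit was 1.5 times a count, the interval of a share or the spread between replicates. For the share of windows with fewer regions, the interval took the 24497 overlapping windows as independent and is too narrow. The 8 moves among its 12 values therefore do not measure instability. For rho it was an approximate standard error from the number of pairs, which is wide here. The cause of the moves was not tested, beyond fewer peaks in stricter lists. In the best 50% of each list, there were 9 replicated regions, a median spacing of 24.1 kb, a density ratio of 4.54 and 97.4% of windows with fewer; 41.7% of replicate 2 members were shared (whole list 44.8%). In the best 25%, the values were 6 regions, 18.9 kb and 97.9% of windows. There, 6 of 7 replicate 1 members were shared (85.7%, whole list 76.5%). With midpoints within 250 bp, 51.6% and 40.0% of members were shared in replicates 1 and 2 (whole lists 64.9% and 38.3%), with a ratio of 4.64 and 98.8% of windows. Reciprocal overlap gave 42.5% shared in replicate 2 (whole list 34.0%), and equal numbers of best peaks 80.8% (whole list 58.5%). With each replicate left out in turn, all peaks of the other list were counted, shared or not, in place of replicated regions. On that different measure, counts ranged from 31 to 40, spacing from 7.93 to 11.7 kb and the ratio from 4.43 to 5.83. Windows with fewer ranged from 99.5 to 99.8%. Narrowing the stretch gave 6.95 and 99.8%, widening it 99.4%, windows end to end 99.7%, and the listed positions 99.7%. The listed positions may derive from the overlap of the 2 lists, so their values are not an independent check. Leaving out the densest 200 kb, gave 1.74; this, and the values of rho over all regions or without the strongest, were chosen after seeing the data. Median percentiles of shared members alone were 60.2 in replicate 1 and 70.4 in replicate 2. Unknown read depth limits statements on peaks of 1 list.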
